A study of Mus musculus with 2 samples.

Results

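The chemokine ligand genes of the mouse were compared between Tc9 and Tc1 cells. They were taken as every probe set of the array whose platform annotation names a gene of the Ccl, Cxcl, Xcl or Cx3cl series, or Pf4 or Ppbp. The rule found 41 probe sets for 40 genes, among 19505 genes with a probe set in all. Tc9 and Tc1 cells are CD8 T cells cultured toward IL-9 production and toward interferon gamma production. The study had 1 array of Tc9 cells and 1 array of Tc1 cells, hybridised with total RNA at day 5, and asked which genes Tc9 cells express more highly. The cells of both groups were isolated from spleen and lymph nodes of mice and primed with anti-CD3 bound to the plate and soluble anti-CD28. For 3 days the Tc9 culture then received IL-4 at 10 ng/mL, TGF-beta at 1 ng/mL and the antibody XMG1.2 against interferon gamma at 20 µg/mL, and the Tc1 culture received recombinant human IL-2 at 10 ng/mL. Both groups then spent 2 days in T cell medium with recombinant human IL-2 at 10 ng/mL. The labels used here give no strain, sex, age or number of mice. The second sample is Tc9 by its title and description but Tc1 by its source name, and the title was followed. On these arrays Il9 had an intensity of 351 in Tc9 cells and 28.2 in Tc1 cells.

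Chemokines are small secreted proteins that guide cells through G protein-coupled receptors and are named by the spacing of their first cysteines (CC, CXC, XC and CX3C). Effector CD8 T cells are known for releasing Ccl3, Ccl4, Ccl5 and Xcl1 on activation. Interferon gamma induces the CXCR3 ligands Cxcl9, Cxcl10 and Cxcl11, which draw type 1 T cells. IL-4 is known to induce Ccl17, Ccl22 and Ccl24 in myeloid cells, and these ligands draw cells that carry CCR4 or CCR3.

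Values are probe set intensities on a linear scale, or log2 of them, and a difference is the log2 value of Tc9 cells minus that of Tc1 cells. Since each group had 1 array, there is no replicate check, so no difference below has a test, an error or a p-value, and each describes this pair of arrays. Genes count as detectable if the higher of their values was at least 86.3, the median intensity of all genes on both arrays. Where 1 array lay under that threshold, the dim value was replaced by it and the fold is given as "at least". A fold of 2 was used as a rule of size, and counts of genes past it use the measured values, dim ones included. Of the probe sets whose names mark them as negative controls, 91.7% lay under the threshold on the Tc9 array and 89.9% on the Tc1 array. Of the 585 that reached it on either array, 3.76% passed 2-fold toward Tc9 cells and 12.5% toward Tc1 cells. Background probe sets grouped by GC content reached 402 on the Tc9 array and 370 on the Tc1 array. In bulk RNA, fewer cells that express a gene and less RNA of it in each cell cannot be told apart. All 8 measured CD8 T cell markers were detectable and within 2-fold, with summed intensities of 25630 in Tc9 cells and 27730 in Tc1 cells. All 6 measured B cell markers were detectable too, and each was lower in Tc9 cells, with sums of 2483 in Tc9 cells and 3796 in Tc1 cells.

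The effector T cell chemokine genes Ccl5 and Ccl3 and the CXCR3 ligand gene Cxcl9 were lower in Tc9 cells by the rule of size. Cxcl10, another CXCR3 ligand gene, passed it by its measured values alone, and its fold was at least 1.49 once its dim value was replaced by the threshold. Ccl24, a CCR3 ligand gene, Ccl17, a CCR4 ligand gene, and Ccl9, a CCR1 ligand gene, were higher. Over all 40 measured chemokine genes, 3 (7.5%) passed 2-fold upward in Tc9 cells, as did 1.80% of all measured genes. A further 5 (12.5%) passed it downward, as did 2.08% of all measured genes. The last of these 5, Ccl19, lay under the detection threshold on both arrays and is given no fold. Higher and lower differences were nearly balanced. The median difference was -0.03 over the 40 genes and 0.00 over all genes, and 18 of the 40 were higher and 22 lower. The median size of the difference, with signs left out, was 0.38 for the 40 genes and 0.24 for all genes.

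There were 17 detectable chemokine genes, and 23 lay under the threshold on both arrays. Of the 17, 11 reached the threshold on both arrays, Ccl17, Ccl24 and Cxcl12 only on the Tc9 array, and Ccl21a, Cxcl9 and Cxcl10 only on the Tc1 array. These 6 genes passed through their higher array alone, so the share of changed genes among the 17 carries that selection. That share was 3 of 17 for higher genes (17.6%) and 4 of 17 for lower genes (23.5%), beside 2.62% and 2.79% of all 10147 detectable genes. Replacing dim values by the threshold left 6 of these 7 genes past 2-fold, all but Cxcl10. Among the 5747 detectable genes with a mean signal in the same range as these 17, 3.50% passed 2-fold upward and 2.99% downward.

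**Figure D1:**
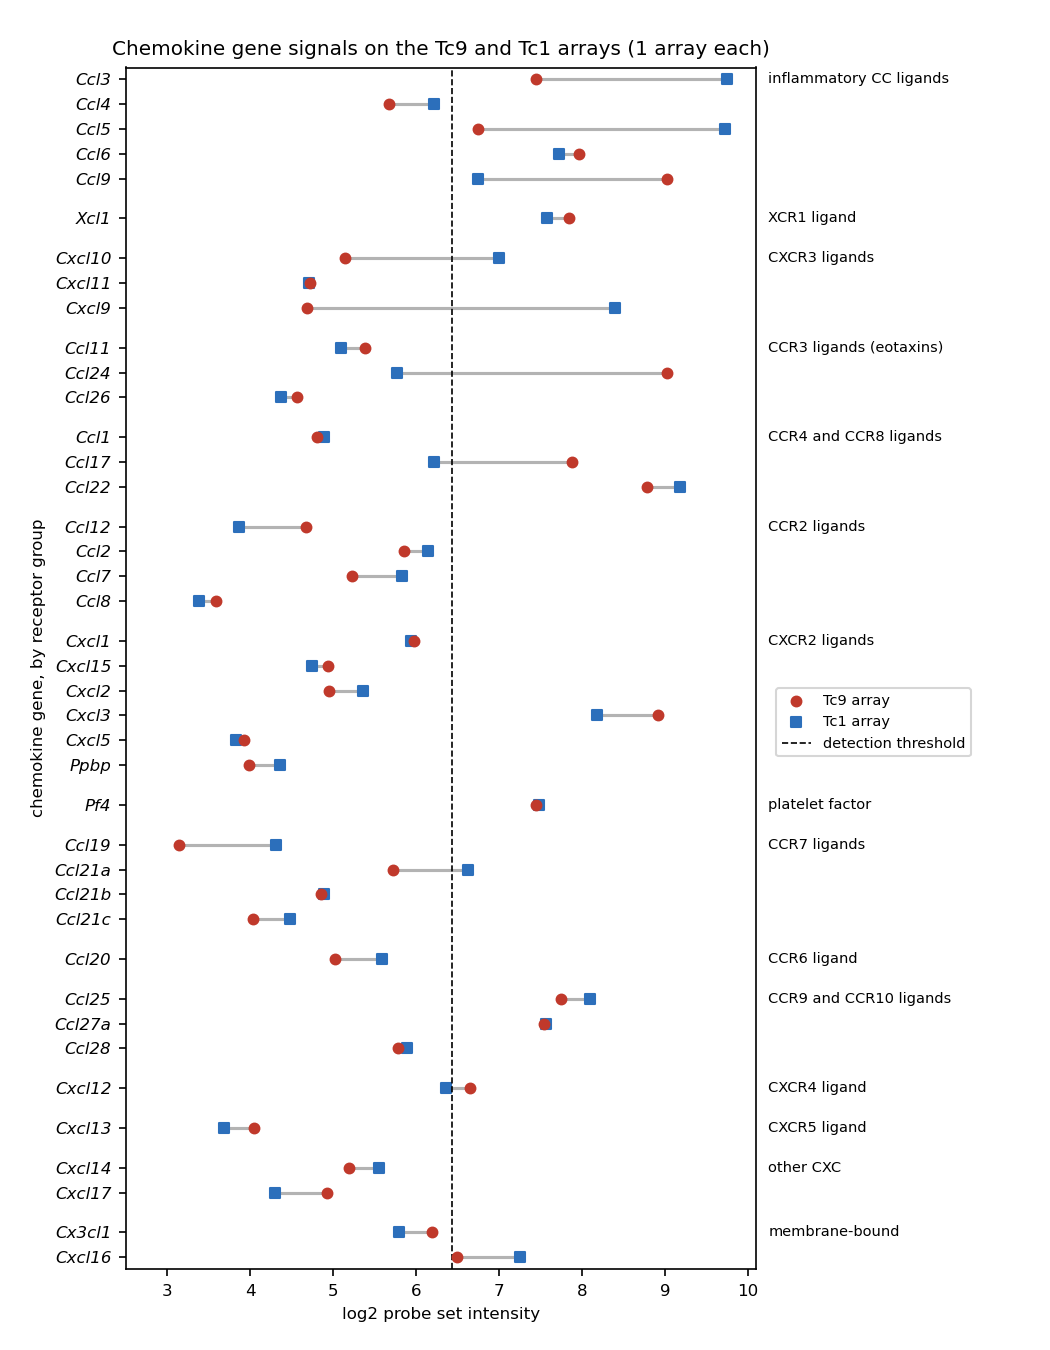
Log2 probe set intensity (x axis) of the 40 chemokine genes, grouped by the receptor of their product, on the Tc9 array (circles) and the Tc1 array (squares), with a line joining the values of a gene. The dashed line is the detection threshold, a log2 intensity of 6.43, which 17 genes reached on at least 1 array, and the widest gap is that of Cxcl9. Levels of different genes come from different probes and are not comparable.

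Among the inflammatory CC ligands, the members went opposite ways. Ccl5, also called RANTES, is made by effector and memory CD8 T cells and binds CCR1 and CCR3. Its intensity was 108 on the Tc9 array and 846 on the Tc1 array. Ccl5 was 7.85-fold lower in Tc9 cells, a log2 difference of -2.97. Among the 9358 genes at or above the threshold on both arrays, that was rank 13 from the most negative difference. Ccl3, the macrophage inflammatory protein 1 alpha released by activated CD8 T cells, had an intensity of 175 on the Tc9 array and 860 on the Tc1 array. It was 4.91-fold lower in Tc9 cells, at rank 26 from the most negative. Ccl5 and Ccl3 were thus low on the Tc9 array yet above the threshold of 86.3 there. The Tc9 value of Ccl5 lay under a stricter threshold of 143, the 95th percentile of negative controls. With that threshold in its place, the fold of Ccl5 was at least 5.92.

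Ccl9, a CCR1 ligand of rodents known mainly from myeloid cells, was high on the Tc9 array. Its intensity was 522 on the Tc9 array and 107 on the Tc1 array, so it was 4.87-fold higher in Tc9 cells, at rank 15 of the 9358 from the most positive. The Tc1 value of Ccl9 lay under the stricter threshold of 143, with which its fold was at least 3.66. Ccl6, a related rodent CCR1 ligand, had intensities of 251 in Tc9 cells and 212 in Tc1 cells, 1.18-fold higher in Tc9 cells. Ccl4, the macrophage inflammatory protein 1 beta, had 51.1 in Tc9 cells and 74.4 in Tc1 cells, both under the threshold, so its probe set gave no fold. Xcl1, or lymphotactin, draws cross-presenting dendritic cells through XCR1 and is another product of activated CD8 T cells. Its intensity was 230 in Tc9 cells and 191 in Tc1 cells, 1.20-fold higher in Tc9 cells. Of these 6 genes, then, Ccl5 and Ccl3 were lower, Ccl9 was higher, Ccl6 and Xcl1 were within 2-fold and Ccl4 was not detectable.

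The ligands of CXCR3 were lower in Tc9 cells wherever they were detectable. Cxcl9 had an intensity of 25.6 on the Tc9 array, under the threshold, and 337 on the Tc1 array, which makes it lower in Tc9 cells by at least 3.91-fold. Cxcl10, first known as interferon gamma-induced protein 10, had 35.4 on the Tc9 array and 128 on the Tc1 array. The fold was at least 1.49 in the lower direction, and its measured log2 difference of -1.86 rests on a value under the threshold. Cxcl10 no longer counted as detectable under the stricter threshold of 143 taken from the negative controls. Cxcl11 had 26.4 in Tc9 cells and 26.1 in Tc1 cells, under the threshold on both arrays, and the RefSeq table lists it as a transcribed pseudogene in the C57BL/6J assembly. Cxcr3, their receptor on type 1 T cells, had 208 in Tc9 cells and 360 in Tc1 cells, 1.73-fold lower in Tc9 cells. Ifng itself had 190 in Tc9 cells and 622 in Tc1 cells, 3.27-fold lower in Tc9 cells. The Tc9 culture received the antibody against its product in the 3 days with IL-4 and TGF-beta, before the 2 days in medium with IL-2. Zbtb46, a dendritic cell marker, moved the same way as these genes, at 48.0 in Tc9 cells and 115 in Tc1 cells. Its fold was at least 1.33 in the lower direction. The other 5 dendritic cell markers were under the threshold on both arrays. Of these, Itgax went the other way, with 85.1 in Tc9 cells, just under the threshold, and 40.9 in Tc1 cells. The measured values of Flt3 and Xcr1 were also higher in Tc9 cells, while Cd209a was lower and Clec9a hardly differed. Summed over the 6 markers, intensities were 218 in Tc9 cells and 237 in Tc1 cells. The part of dendritic cells and of the B cells named above in the lower chemokine signals was not tested.

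Ccl24, or eotaxin-2, attracts eosinophils through CCR3 and had the widest gap among the chemokine genes that were higher in Tc9 cells. Its intensity was 520 on the Tc9 array and 54.6, under the threshold, on the Tc1 array, which makes it higher in Tc9 cells by at least 6.03-fold. The other eotaxin genes, Ccl11 and Ccl26, lay under the threshold on both arrays. Ccl17, or TARC, recruits type 2 and skin-homing T cells through CCR4. Its intensity was 235 on the Tc9 array and 74.1 on the Tc1 array, also under the threshold, a fold of at least 2.73 upward, and of at least 1.65 with the stricter threshold. Ccl22, the other CCR4 ligand, went the opposite way within 2-fold, with 443 in Tc9 cells and 581 in Tc1 cells. Ccl1, a CCR8 ligand, was under the threshold on both arrays. The receptor gene Ccr4 had 2981 in Tc9 cells and 711 in Tc1 cells, and Ccr8 had 2684 in Tc9 cells and 66.6 in Tc1 cells, so both were higher in Tc9 cells. Ccr3 lay under the threshold on both arrays.

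Myeloid cells are known sources of Ccl24, Ccl9 and Ccl17, and monocyte and macrophage markers were read beside these genes. The 7 measured markers summed to 935 in Tc9 cells and 958 in Tc1 cells. Lyz2 had 443 in Tc9 cells and 329 in Tc1 cells, Fcgr3 had 186 in Tc9 cells and 341 in Tc1 cells, and Itgam had 99.9 in Tc9 cells and 114 in Tc1 cells. The other 4 were under the threshold on both arrays. Of these, Adgre1 had 55.9 in Tc9 cells and 32.5 in Tc1 cells, Mrc1 had 33.2 in Tc9 cells and 11.8 in Tc1 cells, Csf1r had 69.2 in Tc9 cells and 61.2 in Tc1 cells, and Cd14 had 46.8 in Tc9 cells and 68.2 in Tc1 cells. Of 7 genes known from IL-4-activated macrophages, 5 were detectable. Of these, 4 passed 2-fold upward in Tc9 cells, beside 2.62% of all detectable genes. This list was chosen after values were seen, so its count carries that choice. Chil3, a chitinase-like protein gene, had 792 in Tc9 cells and 15.2 in Tc1 cells, and its relative Chil4 had 179 in Tc9 cells and 12.5 in Tc1 cells. Arg1, which encodes arginase, had 201 in Tc9 cells and 32.6 in Tc1 cells, and Atp6v0d2, a proton pump subunit gene, had 207 in Tc9 cells and 29.9 in Tc1 cells. These 4 genes were thus above the threshold on the Tc9 array and under it on the Tc1 array, so they counted as detectable through the Tc9 array alone. The lectin gene Clec10a had 116 in Tc9 cells and 124 in Tc1 cells, and Retnla and Mgl2 were under the threshold on both arrays. The part of macrophages in the higher chemokine signals was not tested. Mmp12, the macrophage elastase, which can cleave chemokines, was 25.4-fold higher in Tc9 cells, at 2284 in Tc9 cells and 90.1 in Tc1 cells. The Tc1 value of Mmp12 lay just above the threshold of 86.3 and under the stricter threshold of 143.

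**Figure D2:**
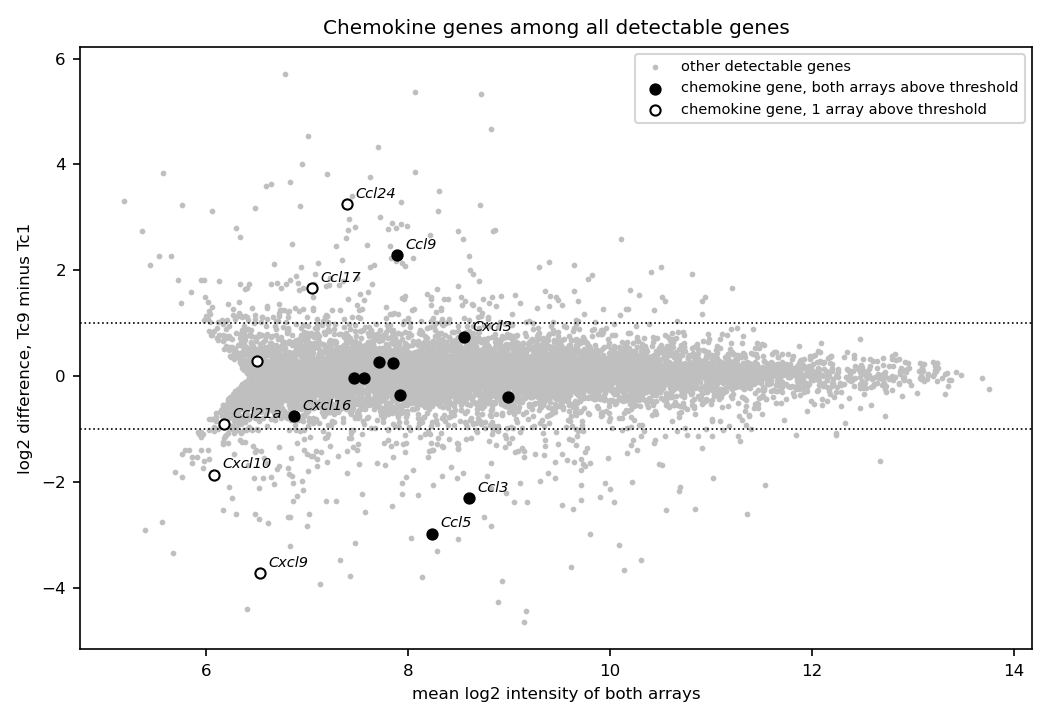
Difference (y axis, log2 Tc9 minus log2 Tc1) against mean log2 intensity (x axis) for the 10147 detectable genes, with the 17 detectable chemokine genes as large points, filled where both arrays reached the threshold and open where 1 did. Dotted lines mark 2-fold, and 3 chemokine genes lie above them and 4 below.

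The remaining detectable chemokine genes were within 2-fold. Cxcl3, a neutrophil attractant that acts through CXCR2, had 484 in Tc9 cells and 290 in Tc1 cells, 1.67-fold higher in Tc9 cells. Its relatives Cxcl1, Cxcl2, Cxcl5, Cxcl15 and Ppbp were under the threshold on both arrays. Cxcl16, a membrane-bound ligand of CXCR6, had 90.1 in Tc9 cells and 152 in Tc1 cells, 1.69-fold lower in Tc9 cells. Its receptor gene Cxcr6 went the other way, with 337 in Tc9 cells and 27.8 in Tc1 cells, at least 3.91-fold higher. Ccl25, a gut and thymus ligand of CCR9, had 215 in Tc9 cells and 273 in Tc1 cells, 1.27-fold lower in Tc9 cells. Cxcl12, the CXCR4 ligand of stromal cells, was close to the threshold, with 100.5 in Tc9 cells and 81.9 in Tc1 cells.

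Pf4, platelet factor 4, and Ccl27a, a skin ligand of CCR10, hardly differed. Pf4 had 175 in Tc9 cells and 178 in Tc1 cells, and Ccl27a had 187 in Tc9 cells and 190 in Tc1 cells. The sign of both differences turned when each array was centred on its median. Of 4 measured platelet markers, 3 were detectable, and all 4 together summed to 328 in Tc9 cells and 419 in Tc1 cells. Itga2b, the defining platelet integrin, had 54.6 in Tc9 cells and 110 in Tc1 cells, at least 1.27-fold lower in Tc9 cells. Gp9 had 125 in Tc9 cells and 156 in Tc1 cells, 1.25-fold lower. Treml1 went the other way, with 86.5 in Tc9 cells and 80.0 in Tc1 cells. Tubb1 was under the threshold on both arrays, at 61.9 in Tc9 cells and 73.1 in Tc1 cells.

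Ccl21a, a ligand of CCR7 that guides T cells into lymph nodes, had 52.8 in Tc9 cells and 98.7 in Tc1 cells, at least 1.14-fold lower in Tc9 cells. The genes Ccl21a, Ccl21b and Ccl21c are near-identical copies that probes may not separate. The single Ccl21c probe set and the first of the 2 Ccl21b probe sets held the same values, 16.4 in Tc9 cells and 22.3 in Tc1 cells. The second Ccl21b probe set, at 28.8 in Tc9 cells and 29.6 in Tc1 cells, held the same values as that of the predicted gene Gm10591. Ccl19, the other CCR7 ligand, had 8.83 in Tc9 cells and 19.8 in Tc1 cells, far under the threshold. Ccr7 itself was 2.16-fold lower in Tc9 cells.

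The 23 chemokine genes under the threshold had intensities between 8.83 and 74.4 on both arrays. They included all 4 measured ligands of CCR2 (Ccl2, Ccl7, Ccl8 and Ccl12), the CCR6 ligand Ccl20, the mucosal ligand Ccl28, the B cell attractant Cxcl13, and Cxcl14, Cxcl17 and Cx3cl1. Apart from Ccl19, the measured difference of each was within 2-fold. These probe sets set no level for the genes in either group.

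Several chemokine genes lie side by side in the genome, and their neighbours were read from the RefSeq table of the GRCm38.p6 assembly. In the chromosome 11 cluster, the order was Ccl5, Ccl9, Ccl6, Ccl3 and Ccl4, with log2 differences of -2.97, 2.28, 0.24, -2.30 and -0.54. Genes that adjoin each other thus went opposite ways, as Ccl5 and Ccl9 did. The gene models of Ccl3 and Ccl4 overlap by 755 bases in that table. Among the 3 array genes on each side of this cluster, Taf15 alone was detectable, with a log2 difference of 0.05. The other chromosome 11 cluster, of Ccl2, Ccl7, Ccl11, Ccl12, Ccl8 and Ccl1, was under the threshold throughout.

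On chromosome 5, Cxcl9 and Cxcl10 lie with Art3, an ADP-ribosyltransferase gene, between them. Art3 had 60.1 in Tc9 cells and 88.6 in Tc1 cells, at least 1.03-fold lower in Tc9 cells. The flanking genes Sdad1 and Nup54 had log2 differences of -0.22 and -0.06. Ccl24 lies next to Ccl26 on the same chromosome, and its other neighbour, Rhbdd2, had a log2 difference of -0.36. On chromosome 8, Ccl17 was higher in Tc9 cells while Ccl22 was lower within 2-fold, with Cx3cl1 between them under the threshold. In each of these 3 places, the chemokine genes past 2-fold had no flanking gene that passed it.

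**Figure D3:**
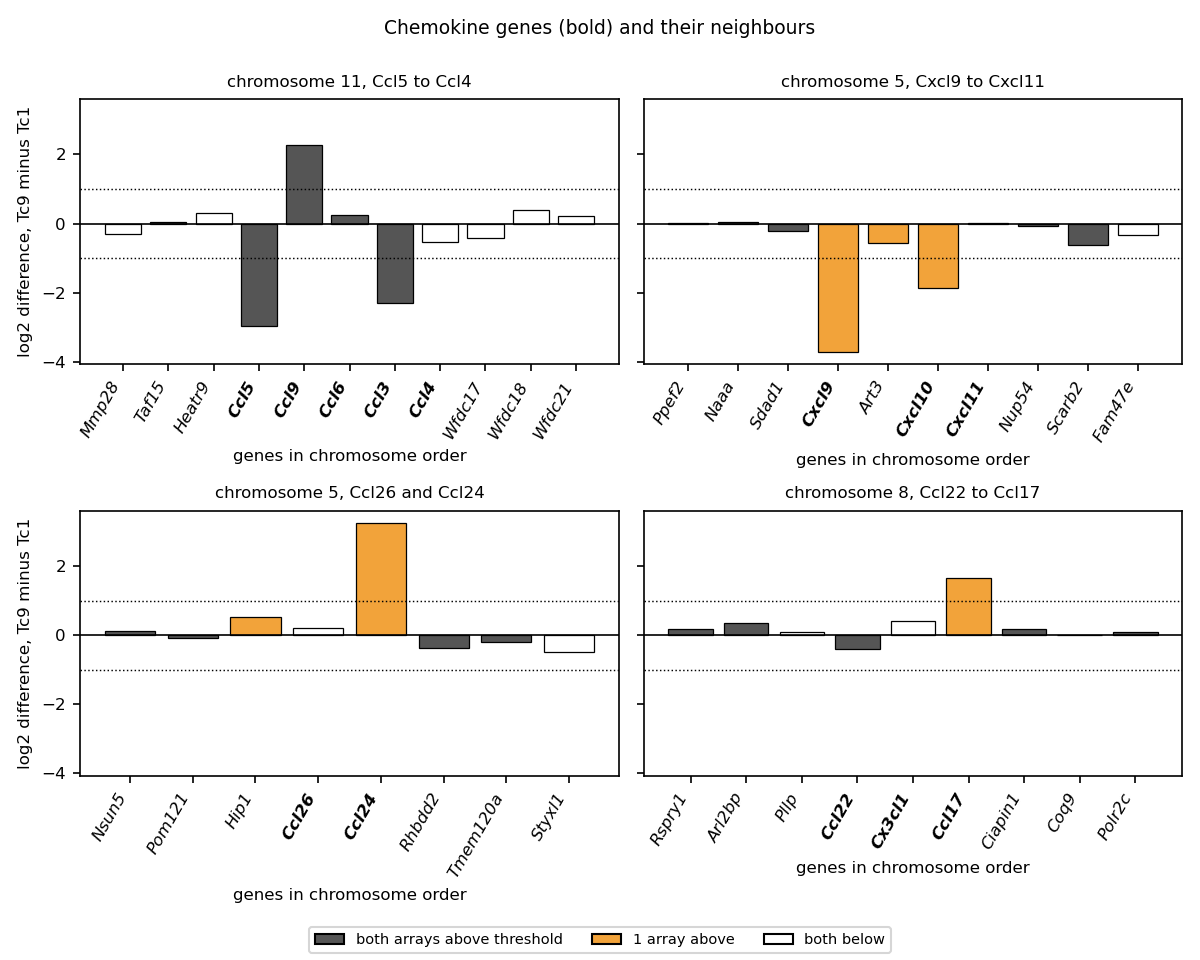
Difference (y axis, log2 Tc9 minus log2 Tc1) of chemokine genes (bold) and of the 3 array genes on each side, in chromosome order (x axis) for 4 clusters. Dark bars reached the threshold on both arrays, orange bars on 1 and white bars on neither, and in the chromosome 11 panel Ccl5 and Ccl3 point down while Ccl9, which lies between them, points up.

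Promoter sequences are shown for the chemokine genes past 2-fold that have a window in the RefSeq table, to set the genes lower in Tc9 cells beside those higher. The table held windows for 5 of these 7 genes, and for 28 of the 40. A window holds 250 bases before the start of transcription and 50 after it, 5′ to 3′ on the strand of the gene, from GRCm38.p6. The window of Cxcl9 is chr5:92328030-92328329 on the reverse strand, that of Cxcl10 chr5:92348840-92349139 on the reverse strand, that of Ccl3 chr11:83649329-83649628 on the reverse strand, that of Ccl9 chr11:83578587-83578886 on the reverse strand and that of Ccl17 chr8:94810203-94810502 on the forward strand. Capitals mark matches to 7 motifs searched on both strands and spelled out after the sequences.
Cxcl9: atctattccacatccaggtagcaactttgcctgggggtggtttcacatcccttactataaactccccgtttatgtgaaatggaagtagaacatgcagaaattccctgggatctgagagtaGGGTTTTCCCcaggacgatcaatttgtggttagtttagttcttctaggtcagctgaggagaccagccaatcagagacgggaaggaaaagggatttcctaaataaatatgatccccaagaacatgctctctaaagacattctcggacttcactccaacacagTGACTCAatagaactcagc
Cxcl10: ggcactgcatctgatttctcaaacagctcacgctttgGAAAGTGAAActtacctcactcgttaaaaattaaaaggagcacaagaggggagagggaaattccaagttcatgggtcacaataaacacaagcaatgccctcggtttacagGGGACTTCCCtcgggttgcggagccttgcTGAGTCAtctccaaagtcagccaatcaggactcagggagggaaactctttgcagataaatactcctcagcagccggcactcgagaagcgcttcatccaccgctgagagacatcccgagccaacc
Ccl3: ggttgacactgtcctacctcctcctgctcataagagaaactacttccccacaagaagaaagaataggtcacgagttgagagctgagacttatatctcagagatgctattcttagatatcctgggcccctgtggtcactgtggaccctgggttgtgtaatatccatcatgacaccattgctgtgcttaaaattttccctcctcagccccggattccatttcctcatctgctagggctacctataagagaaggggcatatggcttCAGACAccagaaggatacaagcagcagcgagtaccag
Ccl9: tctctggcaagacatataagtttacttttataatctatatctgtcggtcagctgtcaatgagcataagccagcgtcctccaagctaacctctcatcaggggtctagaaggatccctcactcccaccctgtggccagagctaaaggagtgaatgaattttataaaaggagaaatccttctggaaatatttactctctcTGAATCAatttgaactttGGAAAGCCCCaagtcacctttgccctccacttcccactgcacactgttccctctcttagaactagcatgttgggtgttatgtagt
Ccl17: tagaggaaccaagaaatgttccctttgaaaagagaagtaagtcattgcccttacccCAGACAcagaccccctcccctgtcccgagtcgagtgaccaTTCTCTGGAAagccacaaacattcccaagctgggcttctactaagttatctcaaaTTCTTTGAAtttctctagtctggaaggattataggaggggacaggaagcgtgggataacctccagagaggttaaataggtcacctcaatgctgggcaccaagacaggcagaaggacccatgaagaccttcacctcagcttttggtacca

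The motifs were TTC and GAA with any 4 bases between for a STAT6-type site, TTCNNNGAA for the gamma-activated site (GAS), GAAA repeated with any 2 bases between for an interferon-stimulated response element (ISRE), GGG, any 2 bases, TT, any base and CC for an NF-kB-type site, TCACACCT for a T-box site, TGANTCA for AP-1 and CAGACA for a SMAD-type site. A match is a description of letters in this window and not a site of binding. Cxcl9 and Cxcl10, lower in Tc9 cells, each held an NF-kB-type match and an AP-1 match, and Cxcl10 also held the ISRE-type match GAAAGTGAAA. Ccl9, higher in Tc9 cells, held an NF-kB-type match and an AP-1 match too, so among these 5 windows both motifs stood in genes of either direction. Ccl5 and Ccl24, also past 2-fold, had no window. Ccl17 held a STAT6-type match, TTCTCTGGAA, and a GAS match, TTCTTTGAA, and was the single chemokine gene with a STAT6-type match among the 28. The Ccl3 window held a SMAD-type match and no other.

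Over the 31 windows of the 28 chemokine genes, 8 (25.8%) held the NF-kB-type motif, beside 4.79% of the 32851 windows of that length in the table. The AP-1 motif was in 6 (19.4%), beside 7.81%, and the ISRE-type motif in 3 (9.68%), beside 3.44%. The GAS motif was in 2 (6.45%), beside 8.3%, the STAT6-type motif in 1 (3.23%), beside 6.95%, and the T-box motif in 1 (3.23%), beside 1.28%. The SMAD-type motif was in 10 (32.3%), beside 21% of all. Windows of a gene with several starts overlap in part, so they are not separate observations.

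**Figure D4:**
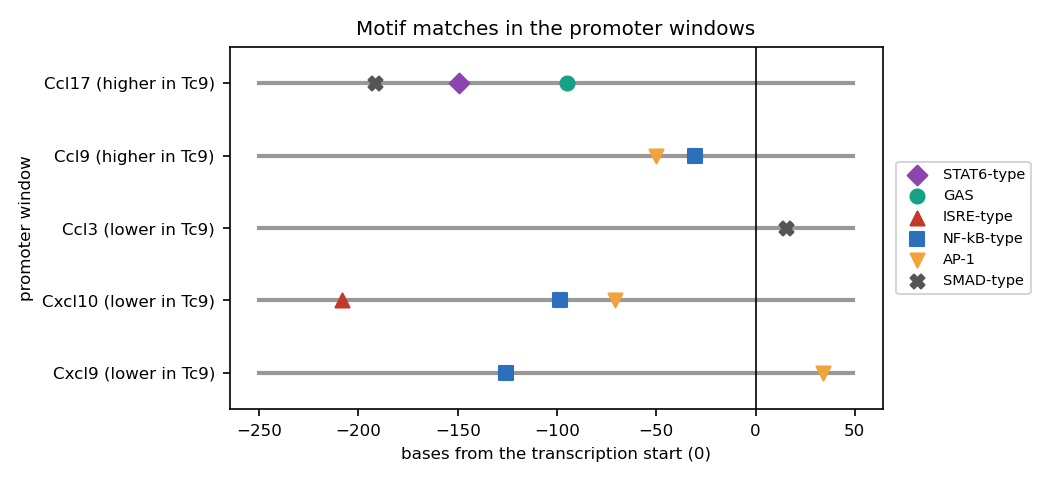
Position of motif matches (x axis, bases from the start of transcription at 0) in the promoter windows of 5 chemokine genes past 2-fold, with the direction of the difference beside each name. NF-kB-type matches stand in the windows of Ccl9, Cxcl10 and Cxcl9, and the STAT6-type match stands in that of Ccl17.

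Other genes of the chemokine pathway went both ways. Of 17 measured receptor genes, 7 were detectable. By the rule of size, 3 of them (Ccr8, Cxcr6 and Ccr4) were higher in Tc9 cells and 1 (Ccr7) was lower, beside 2.62% and 2.79% of all detectable genes. Ccr8 and Cxcr6 reached the threshold on the Tc9 array alone, so the count carries that selection. Ccrl2, an atypical receptor that presents chemerin, was lower in Tc9 cells by at least 2.83-fold, with 62.0 in Tc9 cells and 245 in Tc1 cells. It was the single detectable one of 5 atypical receptor genes.

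Of 18 measured genes of receptor signalling and desensitization, 16 were detectable, and 2 of them (12.5%) passed 2-fold upward in Tc9 cells and 2 (12.5%) downward, beside the same 2.62% and 2.79%. Pik3cg, the catalytic subunit of the phosphoinositide 3-kinase that chemokine receptors use, was 2.38-fold higher, at 2136 in Tc9 cells and 897 in Tc1 cells. Pik3r5, a regulatory subunit of the same kinase, was 3.79-fold lower, at 360 in Tc9 cells and 1361 in Tc1 cells. Rgs10 and Rgs1, which end G protein signals, also parted, Rgs10 being 2.61-fold higher and Rgs1 2.17-fold lower in Tc9 cells. Of 7 carrier and processing genes, 5 were detectable, and of these Mmp12 alone passed 2-fold. Srgn, the proteoglycan serglycin that carries chemokines in granules, differed by 1.05-fold, and Dpp4, the peptidase that trims chemokines, had 158 in Tc9 cells and 315 in Tc1 cells, just under 2-fold lower at 1.997-fold.

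Among 20 measured regulators of chemokine transcription, all were detectable, and 2 (10.0%) passed 2-fold upward in Tc9 cells and 5 (25%) downward, beside 2.62% and 2.79% of all detectable genes. Tbx21, which encodes T-bet, had 90.7 in Tc9 cells and 753 in Tc1 cells and was 8.30-fold lower. The Tc9 value of Tbx21 lay just above the threshold of 86.3 and under the stricter threshold of 143. Irf1, a factor of the interferon gamma response, had 598 in Tc9 cells and 2384 in Tc1 cells and was 3.99-fold lower. Irf8 was 2.46-fold lower and Eomes, a relative of T-bet, 2.09-fold lower, beside Ifng above. The higher genes were Tgfbr1, a TGF-beta receptor chain, 4.71-fold, and Ifngr2, a chain of the interferon gamma receptor, 2.45-fold. Il4ra, the IL-4 receptor chain, and Stat6, its signal transducer, were within 2-fold, at 1.18-fold and 1.11-fold higher in Tc9 cells. Klf13, a factor known to act on the CCL5 promoter in human T cells, was 1.25-fold higher in Tc9 cells. The part of Klf13 in the Ccl5 difference was not tested.

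**Figure D5:**
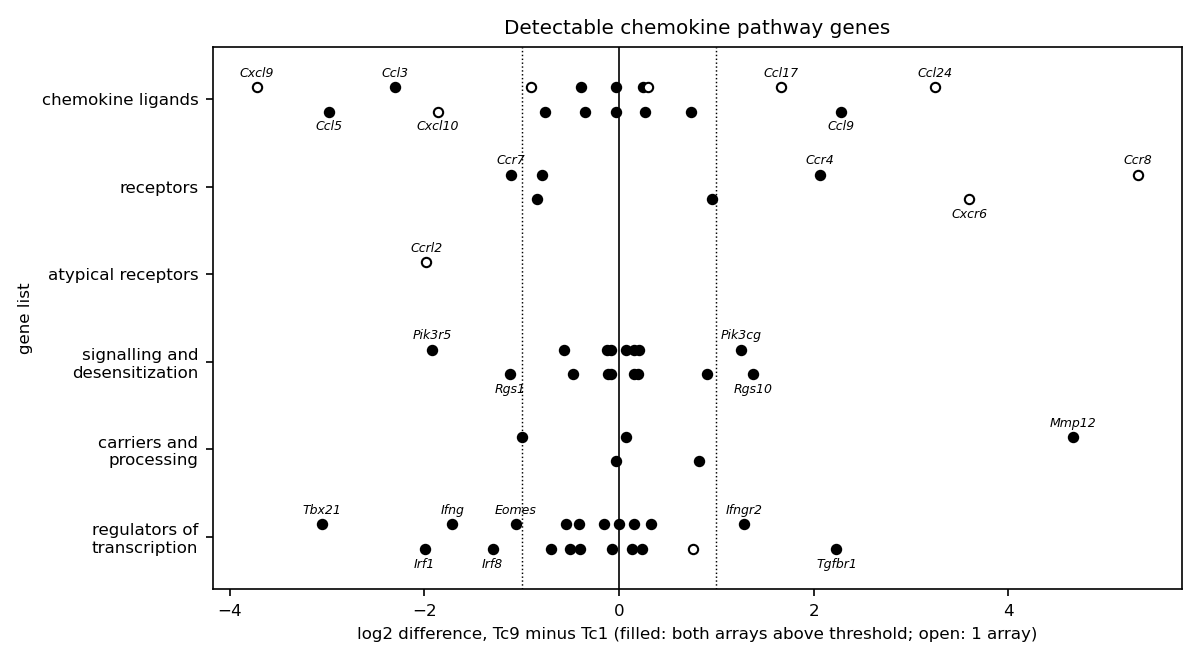
Difference (x axis, log2 Tc9 minus log2 Tc1) of the detectable genes in the chemokine ligand family and in 5 lists of pathway genes (y axis), filled where both arrays reached the threshold and open where 1 did. Genes past the dotted 2-fold lines are named, among them 3 ligands and 3 receptors on the right and 4 ligands and 1 receptor on the left.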

How the data were processed

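Per the design text of the series, RNA was hybridised on Affymetrix arrays, and per the labels' protocols it had been isolated by Trizol and carried a biotin label. The authors deposited 1 table of linear probe set intensity values, and how they corrected, normalized and summarized them is not given in the sources used here. Quartiles of all 28846 probe sets were 17.7, 53.1 and 346 on the Tc9 array and 18.3, 57.2 and 330.5 on the Tc1 array, so log2 values were used with no further normalization. Of the probe sets, 19572 have 1 gene symbol in the platform annotation, 0 have several and 9274 have none. All 19572 gene numbers matched the RefSeq table of GRCm38.p6, giving 19505 genes. The brighter of several probe sets was used for 55 genes. The number of arrays limits the precision, and no test was possible. Every detectable chemokine gene was named with its values, and of other pathway genes those past 2-fold, up to 6 a list, with further ones named after their values were seen (Il9, Gm10591, the neighbours, the IL-4-induced macrophage genes, and genes of matching receptors or within 2-fold). The members and lists were chosen with earlier results of these data known. Counts were tested on simulated data. Alternatives changed the scaling, the offset before log2 (16), the treatment of dim values, the threshold, the filter and the probe set choice. Python 3.11.15, numpy 2.4.6, pandas 2.3.3 and matplotlib 3.10.9 were used. Some listed genes are not reported here.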

Additional observations from a re-analysis of the deposited data

How the results depend on the processing

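Over the 7 alternatives, the count of chemokine genes past 2-fold toward Tc9 cells was 3 in each. The count of lower ones was 3 once dim values took the threshold, 3 with the 95th percentile of negative controls, an intensity of 143, as the threshold, 5 without a filter on dim genes, and 4 in the others. Cxcl10 was the gene lost in both of the first settings. With dim values at the threshold its log2 difference was -0.57, and under the stricter threshold its brighter value of 128 was too low to count. The gene gained was Ccl19. The other 6 genes past 2-fold stayed past it in all 7 alternatives. Of the 17 detectable genes, 4 moved by over 1.5-fold with dim values at the threshold. Cxcl9 had a log2 difference of -3.72 as measured and -1.97 so treated, Cxcl10 -1.86 and -0.57, Ccl21a -0.90 and -0.19, and Ccl24 3.25 and 2.59. An offset of 16 moved Cxcl9 to -3.09. Median centring moved the median of all genes by 0.07. Of the 17 detectable genes, Pf4 and Ccl27a changed sign in some setting, with differences between -0.06 and 0.04. Among the 7 genes past 2-fold, the brighter value of 4 exceeded every GC background probe set, and those of Ccl17, Cxcl9 and Cxcl10 did not. An alternative chosen after seeing the data took that stricter threshold and set dim values to it. It left 2 higher and 3 lower genes, with folds of at least 5.92 for Ccl5, 3.66 for Ccl9, 3.64 for Ccl24, 2.36 for Cxcl9 and 1.65 for Ccl17, and Ccl3 as measured. The median difference of the 40 genes lay between -0.05 and 0.03 over all settings. No paired analysis was possible because each group had 1 array.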

Other observations

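Neutrophil, NK cell and mast cell markers were under the threshold on both arrays. The 3 measured neutrophil markers summed to 177 in Tc9 cells and 70.5 in Tc1 cells, the 2 NK cell markers to 33.8 in Tc9 cells and 82.2 in Tc1 cells, and the 3 mast cell markers to 69.8 in Tc9 cells and 120 in Tc1 cells. Of 6 stromal and endothelial markers, 3 were detectable, and all 6 together summed to 580 in Tc9 cells and 584 in Tc1 cells.

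Within the ligand and receptor pairs, direction did not always match. Ccl17 and Ccr4 were both higher in Tc9 cells, whereas Ccl22, which binds the same receptor, was lower within 2-fold. Cxcl16 was 1.69-fold lower while its receptor gene Cxcr6 was at least 3.91-fold higher. Ccr8 was at least 31.1-fold higher, and Ccl1, which encodes a ligand of CCR8, was under the threshold on both arrays.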
